A study of Mus musculus with 8 samples.

Results

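The transcript changes that follow a single 30 Gy dose of X-rays were measured in Piezo2 knockout MC38 cells. MC38 is a mouse colon adenocarcinoma line, labelled as an epithelial cell line, and Piezo2 encodes a mechanically gated cation channel of the plasma membrane. The knockout (KO) line was edited by CRISPR with 1 guide against Piezo2, while its control (WT) line carried a CRISPR control, and whether either line is a single clone is not given in the labels. Each line was left non-irradiated or irradiated, with 2 libraries in each of the 4 groups, and RNA was taken 60 hours after the dose. The comparison takes the 4 KO libraries of the 8 in the series, chosen by their labels: the irradiated 1 and 2 against the non-irradiated 1 and 2. Of the 29079 genes in the table, 14923 had enough reads to be tested.

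Ionising radiation breaks DNA. Breaks that stay unrepaired hold cells in the cycle through p53 and the CDK inhibitor p21, and chromosome fragments left outside the nucleus can be sensed as foreign DNA by cGAS, which signals through STING. Double-stranded RNA is sensed by RIG-I and MDA5, which signal through MAVS. Both routes lead to IRF3 and NF-kB and to transcription of interferon beta, whose receptor activates transcription factors that bind the interferon-stimulated response element (ISRE) in front of many antiviral genes. Interferon also raises antigen presentation by MHC class I, the display that CD8 T cells read.

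Levels are given as reads per 1 M of a library's total counts (CPM), and changes as fitted log2 differences, irradiated minus non-irradiated KO, with the standard error (SE, n = 2 libraries a group). A gene is written as rising or falling where its edgeR quasi-likelihood p, adjusted by the Benjamini-Hochberg method over all tested genes, was under 0.05. The libraries held 10971004 and 19887180 counts (non-irradiated) and 15.1 and 17.3 M (irradiated), so 1 read in the shallowest library weighs more than in the others, and 0 reads allow up to 0.151 to 0.273 CPM. The self-test on simulated counts, run on 14346 genes, recovered 73.5% of genes raised and 66.7% of genes lowered 2-fold in this comparison. Over the KO libraries alone, the first principal component carried 75.5% of the variance and placed the non-irradiated libraries at -61.78 and -62.82 and the irradiated ones at 64.27 and 60.33. The second carried 19.5% and parted replicate 1 (36.86 and 25.65) from replicate 2 (-35.73 and -26.77) in both groups.

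Piezo2 itself (ENSMUSG00000041482) was nearly unread. The non-irradiated KO libraries held 0 and 1 reads and the irradiated ones 7 and 12, and the gene fell below the filter. Non-irradiated WT libraries held 0 and 0, so these reads cannot check the edit, which need not change the mRNA level. The epithelial label could be checked in part. Cdh1 (E-cadherin) was read at 47.9 and 50.1 CPM in the non-irradiated KO libraries, but Krt8, a keratin of simple epithelia, was at 0 and 0.151 CPM, and the colon markers Epcam, Krt20 and Cdx2 are not in the table that was analysed. The 17 listed epithelial genes in the table summed to 371 and 378 CPM in these libraries. The basal keratin Krt14, given below, was abundant.

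Irradiation changed a large share of the transcriptome, and the rises were larger than the falls. In the irradiated KO libraries 3156 genes (21.1% of those tested) were higher and 2771 (18.6%) lower. At least 2-fold, 1604 genes (10.7%) rose and 417 (2.79%) fell. Rises of log2 3 to 5 numbered 323 against 8 falls, and 231 genes rose beyond log2 5, where no gene fell. The genes that rose at least 2-fold took 2.1 and 2.05% of the reads of the non-irradiated KO libraries and 8.69 and 8.63% of the irradiated ones. The median log2 change over all tested genes was 0.018. Without irradiated 2 the counts were 2072 higher and 1832 lower, and with the replicate number as a block the lower count was 4417. RNA was pooled over all cells of a culture, so fewer cells expressing a gene and less RNA of it per cell cannot be told apart.

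The letters in front of the genes that rose most are shown first, since interferon-induced genes led the rises. RefSeq promoter windows (GRCm38.p6, 250 bases before the start of transcription, 5′ to 3′ in the gene's own direction) are printed for 6 genes that stand for its steps: the ligand Ifnb1 (chr4:88522795-88523044, minus strand), the effectors Isg15 (chr4:156200819-156201068, minus strand), Ifit3 (chr19:34583279-34583528, plus strand) and Rsad2 (chr12:26456453-26456702, minus strand), the GTPase Igtp (chr11:58199306-58199555, plus strand) and the chemokine Cxcl10 (chr5:92348890-92349139, minus strand). Capitals mark the ISRE core, which is GAAA, any 2 bases and GAAA again, read on both strands, and in Ifnb1 the NF-kB letters, which are GGGA, any 2 bases and TTCC.
Ifnb1: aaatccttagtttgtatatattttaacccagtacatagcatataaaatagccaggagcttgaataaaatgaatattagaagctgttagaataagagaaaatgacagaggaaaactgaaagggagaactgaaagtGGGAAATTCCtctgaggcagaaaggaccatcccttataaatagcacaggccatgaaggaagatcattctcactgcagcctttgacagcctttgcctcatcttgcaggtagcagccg
Isg15: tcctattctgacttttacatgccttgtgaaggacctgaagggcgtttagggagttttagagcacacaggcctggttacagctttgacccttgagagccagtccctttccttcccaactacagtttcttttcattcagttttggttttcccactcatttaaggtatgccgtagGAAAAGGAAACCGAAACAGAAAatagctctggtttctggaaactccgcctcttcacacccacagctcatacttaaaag
Ifit3: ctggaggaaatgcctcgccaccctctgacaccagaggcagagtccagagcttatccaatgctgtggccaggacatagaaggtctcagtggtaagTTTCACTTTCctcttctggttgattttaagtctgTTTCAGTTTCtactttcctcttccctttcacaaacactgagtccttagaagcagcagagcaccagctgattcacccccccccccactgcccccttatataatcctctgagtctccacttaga
Rsad2: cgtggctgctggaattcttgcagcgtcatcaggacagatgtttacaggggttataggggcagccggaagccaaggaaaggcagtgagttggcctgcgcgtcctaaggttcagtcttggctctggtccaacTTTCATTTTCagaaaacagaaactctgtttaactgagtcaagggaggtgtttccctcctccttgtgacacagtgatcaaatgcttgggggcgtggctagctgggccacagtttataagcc
Igtp: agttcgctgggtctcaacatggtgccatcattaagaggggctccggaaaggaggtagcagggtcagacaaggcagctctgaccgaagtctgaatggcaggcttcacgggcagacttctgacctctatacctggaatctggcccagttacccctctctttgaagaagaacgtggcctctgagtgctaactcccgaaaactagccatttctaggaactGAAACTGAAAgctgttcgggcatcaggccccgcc
Cxcl10: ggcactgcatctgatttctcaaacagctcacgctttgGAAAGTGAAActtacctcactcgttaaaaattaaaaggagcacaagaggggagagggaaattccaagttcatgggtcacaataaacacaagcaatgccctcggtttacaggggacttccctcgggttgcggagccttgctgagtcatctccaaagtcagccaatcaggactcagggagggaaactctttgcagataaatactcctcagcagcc
In Isg15 the capitals hold 3 overlapping matches, the first starting 78 bases before the start of transcription and the last 66. Ifit3 held matches at 156 and 122 bases, Rsad2 at 120, Igtp at 34 and Cxcl10 at 213, and the Cxcl10 window also held the NF-kB letters at 159 bases. The Ifnb1 window held the NF-kB letters 116 bases before the start and no exact ISRE core, which says only that those letters are not in that window.

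The ISRE core was the more frequent the further a gene rose. Over windows of 250 bases before and 50 after the start, it was found in 3.44% of all 32851 windows in the table and in 3.11% of those of tested genes (418 of 13428). It was in 15.57% of windows of genes that rose at least 8-fold (76 of 488), 9.03% of those at least 2-fold higher (132 of 1461), 3.18% of those less than 2-fold higher (51 of 1606), 2.15% of those less than 2-fold lower (51 of 2368) and 1.39% of those at least 2-fold lower (5 of 359). The interferon-induced GTPases held it in 10 of 12 windows and the interferon effectors in 12 of 27, against 0 of 34 for ribosome biogenesis genes. The NF-kB letters stood in 3.28% of windows of genes at least 8-fold higher, in 1.53% of those of tested genes and in 1.47% of all windows. The gamma-activated letters TTCNNNGAA stood in 8.61% of windows of genes at least 8-fold higher, 8.35% of those at least 2-fold higher and 6.13% of those at least 2-fold lower, against 6.78% for tested genes and 8.3% for all windows. They stood in 6 of 12 GTPase and 7 of 27 effector windows. A match describes the letters, not binding. Gbp6 and Mx1 had no entry.

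**Figure D1:**
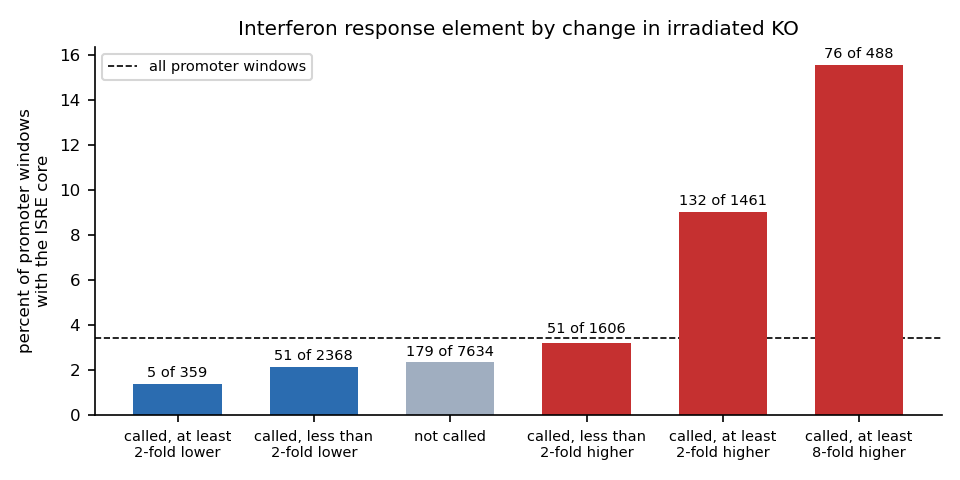
Bars give the percentage of RefSeq promoter windows (300 bases each, y axis) that hold the ISRE core on either strand, by the size and direction of the change in irradiated against non-irradiated KO libraries (x axis). The share is 15.57% for genes at least 8-fold higher, a subset of the genes at least 2-fold higher (9.03%), and 1.39% for genes at least 2-fold lower.

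The interferon beta transcript appeared with irradiation. Ifnb1 (ENSMUSG00000048806, chr4:88522025-88522774) had 1 and 0 reads in the non-irradiated and 129 and 118 in the irradiated KO libraries, which is 8.56 and 6.81 CPM after the dose. The irradiated libraries lay far above both others, and the gene rose by log2 7.51 ± 0.74 (edgeR adjusted p = 0.000232). With so few reads before the dose the size is loose, at 9.96 without non-irradiated 1 and 6.24 without non-irradiated 2. Irradiated WT libraries held 4 and 4 reads. The difference of the 2 responses, log2 4.78 ± 2.04, did not pass the test (edgeR adjusted p = 0.397, and 0.23 with the block). Of the other listed ligands only Ifna4 was tested, at 0 and 0 CPM before and 1.52 and 0.923 CPM after the dose, and its call was lost without non-irradiated 2 or irradiated 1.

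Sensors of cytosolic nucleic acid rose: 16 of 16 tested members were higher, against 12 in WT. By DESeq2 14 rose, and 13 did in a fit of the 4 KO libraries alone. The median log2 change was 2.80, or 2.10 with the member at 0 reads set to its bound. Ifih1, which encodes the double-stranded RNA sensor MDA5, had 19.3 and 18 CPM in the non-irradiated and 359.5 and 355 CPM in the irradiated KO libraries, a change of 4.23 ± 0.10. Dhx58 (LGP2, a regulator of RIG-I and MDA5) went from 6.29 and 5.23 to 199 and 219 CPM, and the DNA-binding Ifi205 and Ifi203 from 1.73 and 0.905 to 75.4 and 72.3 CPM and from 17 and 15.5 to 555 and 529.8 CPM. The irradiated values of these 4 genes were all well above the non-irradiated ones. The DNA sensor gene Cgas rose less, by 1.12 ± 0.21. The proteins that connect sensors to the ligand moved little by comparison. Tmem173 (STING) and Mavs changed by 0.34 ± 0.11 and 0.31 ± 0.08, calls that were lost without non-irradiated 2, irradiated 1 or irradiated 2 (Tmem173 also without non-irradiated 1). Irf3, the factor downstream of both, was at -0.16 and did not pass the test. The response of Ifih1 was larger in KO than in WT by log2 2.08 ± 0.14 (edgeR adjusted p = 0.000968), one of 7 members for which that difference passed (6 without any one KO library, 10 with the block).

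Downstream of the receptor, the transcription factors rose much further than the receptors. Of 19 tested receptors, kinases and factors, 13 rose and 1 fell (2 with the block), with a median of 0.81. Irf7, which amplifies interferon alpha transcription, went from 8.75 and 7.49 to 349 and 327 CPM (log2 change 5.36 ± 0.23, edgeR adjusted p = 3.36e-06). Irf5, another factor of the family, went from 3.83 and 4.68 to 42.6 and 44.4 CPM. Their irradiated libraries were several-fold above the non-irradiated ones, with no overlap. The receptor chains Ifnar1, Ifnar2 and Ifngr1 had log2 changes of -0.13, 0.28 and 0.27 and the kinase Jak1 0.23. None passed the test, but with the replicate block Ifnar1 fell (edgeR adjusted p = 0.0449) and Ifnar2 (0.0442), Ifngr1 (0.000903) and Jak1 (7.76e-06) rose. Socs1, a feedback inhibitor of JAK kinases, rose by 2.25 ± 0.17 in KO and was at -0.36 ± 0.16 in WT, and the difference passed (edgeR adjusted p = 0.00223). The difference for Irf7 was 1.32 ± 0.40, with edgeR adjusted p = 0.204 without and 0.000232 with the block.

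Every tested interferon effector rose. The list had 33 higher and 0 lower of 33 tested (35 listed), with changes from 1.33 to 8.13 and a median of 5.56, against a median of 3.91 and 32 higher in WT. Their summed level went from 737 and 689 CPM to 12250 and 11883 CPM. Rsad2, which encodes viperin, an antiviral enzyme that makes a chain-terminating nucleotide, went from 2.92 and 1.56 to 551 and 514 CPM, and Mx1, a dynamin-like GTPase that traps viral particles, from 2.1 and 1.06 to 405 and 383 CPM. Ifit3, a cytosolic protein of the family that binds viral RNA, went from 10.9 and 5.53 to 1021 and 958 CPM. The non-irradiated 1 library was above non-irradiated 2 for all 3, and both were far below the irradiated pair. Isg15, a ubiquitin-like modifier, rose by 6.48 ± 0.17, and Zbp1, a sensor of Z-form nucleic acid that can trigger necroptosis, went from 1.64 and 1.01 to 173 and 189.9 CPM. Ifit2 stood out by its starting level, 91.1 and 83.3 CPM without irradiation and 802 and 714 CPM after it. Reads of near-identical copies such as Ifit3 and Ifit3b may be divided between them.

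The interferon-induced GTPases, which attack the membranes of vacuoles holding pathogens, rose furthest. All 18 tested members were higher (4.25 to 12.48, median 7.57, or 6.79 with the 5 members at 0 reads in the non-irradiated KO libraries at their bound), and their summed level went from 50.8 and 51.6 to 3460 and 3394 CPM. Those 5 passed the filter through other libraries, so they could hardly be called lower. Gbp6 had 0 reads in both non-irradiated KO libraries and 685 and 806 in the irradiated ones, at least 473-fold higher against the 3 reads over the group that 0 allows. Iigp1 went from 1.46 and 0.503 to 385 and 337 CPM, Tgtp2 from 0.273 and 0.201 to 186 and 163 CPM and Tgtp1 from 0.091 and 0.352 to 108 and 121 CPM. In each the non-irradiated libraries were close to unread and the irradiated pair lay close together. Irgm1, a regulator of the family, already had 25 and 24.6 CPM and rose to 479.6 and 489 CPM. Tgtp1 and Tgtp2 are near-identical and lie within the span of Olfr56, and Igtp overlaps Irgm2, so the split of reads among them is uncertain.

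**Figure D2:**
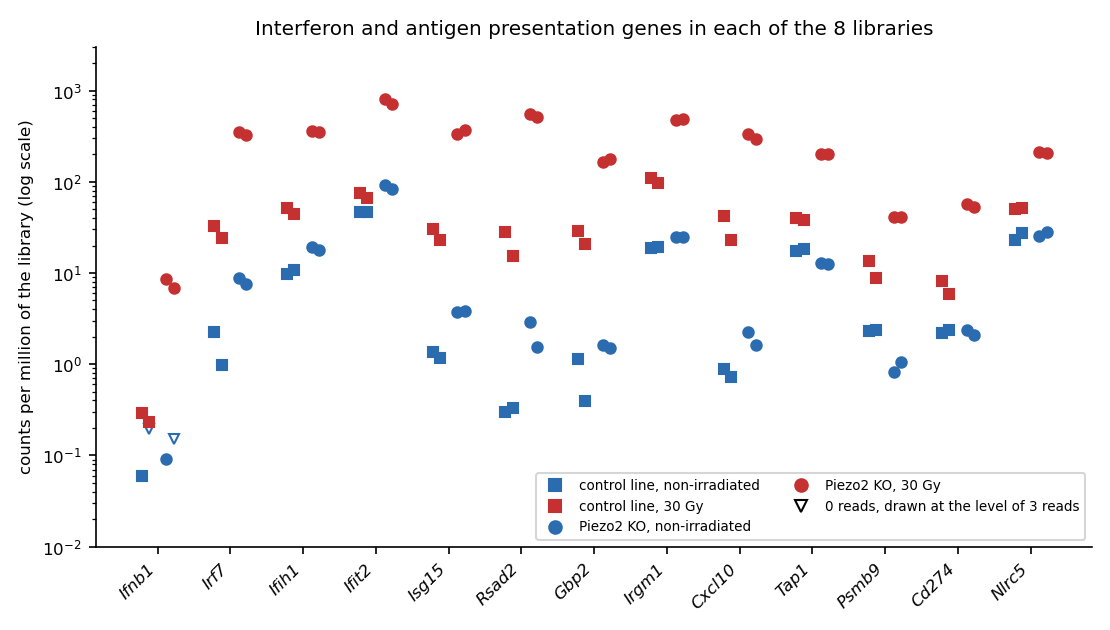
Each column is a gene of the interferon response, from ligand and factors to effectors and presentation, and each point its level in 1 of the 8 libraries (y axis, CPM, log scale; squares WT, circles KO, blue non-irradiated, red 30 Gy, open triangles 0 reads drawn at the level of 3 reads). In all 13 genes the red KO points lie above the blue KO points, for Irf7 at 349 and 327 against 8.75 and 7.49 CPM.

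Antigen presentation followed. In the MHC class I pathway 19 of 22 tested members rose and 0 fell (median 2.08), and the 3 that did not pass, Pdia3 (0.19), Calr (0.10) and Canx (0.16), are general chaperones of the endoplasmic reticulum. With the block these passed too (edgeR adjusted p = 4.82e-05, 0.0282 and 6.16e-05). Psmb9, an interferon-induced proteasome subunit, went from 0.82 and 1.06 to 40.9 and 41.4 CPM, a change of 5.37 ± 0.26 (edgeR adjusted p = 5.69e-06). Tap1, which pumps peptides into the endoplasmic reticulum, went from 12.9 and 12.6 to 203 and 201 CPM. The libraries of each group lay close together and the groups far apart. Psmb9 and Tap1 overlap on opposite strands, and the strand setting of the counting is not given. The heavy chain H2-K1 went from 383 and 358 to 1269.7 and 1127 CPM and the light chain B2m from 552 and 510.0 to 2262 and 1934 CPM, the latter among the largest gains in reads of all genes. The KO response was above the WT response for 10 members (6 without non-irradiated 1, 19 with the block), among them Tap1 by 2.88 ± 0.11 (edgeR adjusted p = 0.000132) and Psmb9 by 3.20 ± 0.35, while for B2m that difference (0.59 ± 0.15) did not pass (edgeR adjusted p = 0.124). Several class II genes began near 0. Cd74, the invariant chain, went from 0.182 and 0.151 to 6.63 and 7.39 CPM, and 5 of 6 tested members rose (3 without irradiated 2). Of these 6, 3 had at most 2 reads in both non-irradiated KO libraries. Those 3 passed the filter through other libraries, so they could hardly be called lower.

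Chemokine transcripts rose, a few of them from near silence. Summed over the list they went from 179 and 149 CPM in the non-irradiated to 691 and 642 CPM in the irradiated KO libraries. Of 12 tested chemokines 11 were higher and 0 lower (median 3.11). Of these 12, 2 had at most 2 reads in both non-irradiated KO libraries, so they could hardly be called lower. Cxcl10, a ligand of the T cell receptor CXCR3, had 2.28 and 1.61 CPM in the non-irradiated and 332 and 294 CPM in the irradiated KO libraries, a change of 7.35 ± 0.34 (edgeR adjusted p = 5.07e-06). Its relatives Cxcl9 and Cxcl11 had no read in the non-irradiated libraries and reached 4.38 and 3.75 and 5.64 and 3.75 CPM, so the family was not raised to a like level. Cxcl11 is annotated as a polymorphic pseudogene. The difference from WT for Cxcl10 was 2.11 ± 0.69, with edgeR adjusted p = 0.246 without and 0.00115 with the block, and Ccl8 was the only chemokine for which it passed (2.12 ± 0.28, edgeR adjusted p = 0.0112), though not without non-irradiated 2 or irradiated 2. Among 16 tested cytokines and growth factors 8 rose and 3 fell, the falls a share near the 18.6% of all tested genes (21.1% rose). Tnfsf10 (TRAIL, a death receptor ligand) went from 0.273 and 0 to 14.3 and 13.6 CPM, and Il6 from 0.091 and 0 to 2.19 and 2.37 CPM. The 3 that fell were Vegfa, from 165 and 147 to 74.7 and 71.2 CPM, Pdgfa, from 41.6 and 42.8 to 23.2 and 22.2 CPM, and Pdgfb. Of 10 tested complement genes 5 rose (8 with the block), with C4b at 0.182 and 0.151 to 64.2 and 68.6 CPM and C3 at 0.273 and 0.101 to 29.2 and 29.6 CPM.

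Ligands that lymphocytes read moved both ways in kind but mostly up: 9 of 15 rose, and Pvr, the 1 that fell, lost its call without irradiated 2 or non-irradiated 1 (2 fell with the block). Of the 15, 2 had at most 2 reads in both non-irradiated KO libraries, so they could hardly be called lower. Cd274 encodes PD-L1, which restrains T cells, and went from 2.37 and 2.11 to 56.9 and 52.7 CPM (log2 change 4.59 ± 0.19), with no overlap and the irradiated pair close together. In WT it rose by 1.54 ± 0.19, and the responses differed by 3.04 ± 0.27 (edgeR adjusted p = 0.00213). NF-kB feedback genes rose less. Nfkbia, the inhibitor that NF-kB itself induces, went from 53.4 and 51.5 to 104 and 107 CPM and Tnfaip3 (A20) from 1.91 and 2.01 to 9.55 and 9.87 CPM, while the subunits Rela and Nfkb1 were at 0.20 and -0.15 and passed only with the block (edgeR adjusted p = 0.000881 and 0.00671). Of 20 tested NF-kB genes 13 rose (8 without non-irradiated 1, non-irradiated 2 or irradiated 1) and 1 fell (2 with the block), against 21.1% and 18.6% of all tested genes.

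**Figure D3:**
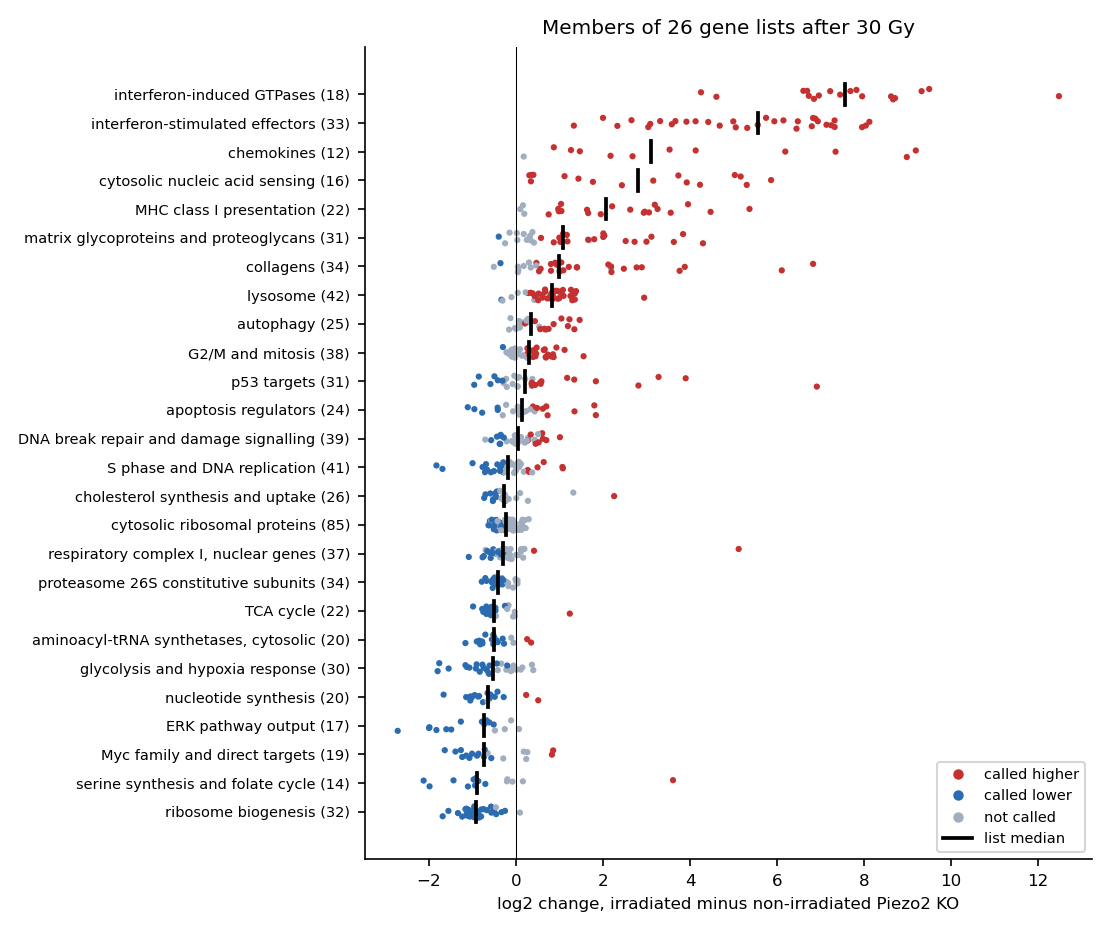
Each dot is a tested member of a gene list, placed at its log2 change in irradiated against non-irradiated KO libraries (x axis), in red where it rose, blue where it fell and grey where it did not pass. Black bars are list medians, from 7.57 for the interferon-induced GTPases to negative values for ribosome biogenesis (-0.91) and serine and folate metabolism (-0.90).

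Cell death genes changed in a mixed way, with the inflammatory ones clearly up. Of 11 tested genes of necroptosis, pyroptosis and inflammatory caspases 9 rose (median 1.16) and 0 fell (1 fell with the block or without irradiated 1). Casp4 (caspase-11, which senses bacterial lipid and cleaves gasdermin D) went from 7.47 and 5.98 to 65.9 and 60.8 CPM. Mlkl, which ruptures the membrane in necroptosis, had 153 and 149 CPM before and 249.8 and 235 CPM after the dose. It rose by 0.65 ± 0.08 in KO (edgeR adjusted p = 0.000589) and fell by 0.53 in WT, from 182 and 179 to 137 and 123 CPM, and the responses differed by 1.18 ± 0.11 (edgeR adjusted p = 0.00229). Among 24 apoptosis regulators 8 rose (4 without non-irradiated 2) and 5 fell (3 without irradiated 2). Of all tested genes 21.1% rose and 18.6% fell, so the share of fallers was near that of all genes. The risers included the pro-death BH3-only genes Bmf, from 3.28 and 3.82 to 14.5 and 11.1 CPM, and Bcl2l11 (BIM), from 12.8 and 10.2 to 33.9 and 25.3 CPM. The fallers included the survival genes Bcl2l1 (BCL-XL), from 97.3 and 119.6 to 47.2 and 56 CPM, and Bcl2, from 16 and 15.4 to 9.62 and 9.12 CPM. Bbc3 (PUMA), a p53 target of the same class, was at -0.23 and did not pass.

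At 60 hours p53 targets rose more often than all tested genes (21.1%), and their falls were near the 18.6% of all tested genes. Of 31 tested, 14 rose (9 without irradiated 2, 8 without non-irradiated 2) and 6 fell (2 without irradiated 2), with a median of 0.21. Eda2r, a death receptor of the TNF family, went from 0.82 and 0.955 to 9.22 and 8.77 CPM and Trp53inp1, a p53 cofactor, from 4.65 and 4.78 to 38.1 and 30.1 CPM. Cdkn1a, which encodes p21, had 173 and 161 CPM in the non-irradiated and 236 and 229 CPM in the irradiated libraries. The groups did not overlap, and the rise of 0.44 ± 0.07 (edgeR adjusted p = 0.00289) was small beside those above. Mdm2 and Ccng1, both classical targets, were at 0.03 and 0.04 and did not pass, and Phlda3 fell, from 103 and 103 to 54.1 and 54.2 CPM. Lmnb1 (lamin B1), whose loss marks senescent cells, fell from 143 and 149 to 79.1 and 77.7 CPM. Hmga1, a chromatin architecture protein, fell from 906 and 859.5 to 279 and 269 CPM, while Glb1, the lysosomal beta-galactosidase used as a senescence stain, rose from 86 and 87.7 to 155 and 160.4 CPM. Secreted senescence factors were mixed, with 9 of 16 higher and 4 lower. Spp1 (osteopontin) rose from 39.7 and 39 to 155 and 169 CPM and Timp1 fell from 149 and 144 to 65.8 and 68.7 CPM.

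Mitotic genes were higher and genes of S phase entry lower. In the G2/M list 21 of 38 tested members rose (median 0.30), and Kif23, the 1 that fell, lost its call without non-irradiated 2, irradiated 1 or irradiated 2 (5 fell with the block). Pttg1 (securin) went from 30.4 and 27.5 to 95.2 and 78.5 CPM and Kif20a, a kinesin of cytokinesis, from 122 and 135 to 269 and 302 CPM, and both irradiated libraries were above both non-irradiated ones. Mki67 and Foxm1, which mark cycling cells, were at -0.10 and -0.15, passing only with the block (edgeR adjusted p = 0.0116 and 0.00292). Of 41 S phase genes 15 fell and 6 rose (3 without non-irradiated 1, irradiated 1 or irradiated 2). Ccne1 (cyclin E1), which drives entry into S phase, went from 13.7 and 14.2 to 3.58 and 4.44 CPM, a change of -1.83 ± 0.19 (edgeR adjusted p = 0.000272), and Tk1, thymidine kinase, from 132 and 136 to 42 and 42.8 CPM. Against that trend the replication factor Mcm10 rose from 51.2 and 55 to 118 and 112 CPM. Of 39 repair genes 9 rose (15 with the block) and 7 fell (3 or 4 without any one KO library), shares near the 21.1% and 18.6% of all tested genes. Atm, the kinase that responds to double-strand breaks, went from 87.5 and 82.3 to 175 and 175 CPM, and Xrcc6 (Ku70), which joins their ends, from 74.9 and 77.5 to 53.8 and 51.3 CPM.

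Histone transcripts had uneven support. Replication-dependent histone genes had a median log2 change of -1.43 over 17 tested genes, but 2 fell by the test, 13 with the block, 6 without non-irradiated 1 and 1 without non-irradiated 2 or irradiated 2, and without non-irradiated 2 the median was -0.16. H1f0, a linker histone that is made outside S phase, was one of the largest losses in the library, from 1872 and 1464 to 449 and 378 CPM (log2 change -2.05 ± 0.19). H3f3b, a replacement histone H3, went from 1512 and 1118 to 648 and 469 CPM. Replicate 1 was above replicate 2 in both groups for both genes, and the groups did not overlap. The label "mRNA sequencing" gives no kit, and many histone transcripts carry no poly(A) tail, so how the libraries caught them is not known.

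Lysosomal genes rose together, at modest size. Of 42 tested, 36 were higher (median 0.82, against 0.018 for all genes), and Gusb, the 1 that fell, lost its call when any one KO library was left out. Ctsb (cathepsin B) went from 397 and 352 to 1039 and 956 CPM, and Lipa, the lysosomal acid lipase, from 70.2 and 68.7 to 181 and 172 CPM. Psap, the precursor of the saposins, and Gpnmb, a membrane glycoprotein of stressed lysosomes, were among the 10 largest gains in reads, from 759 and 729 to 1638 and 1577 CPM and from 272 and 279 to 1133 and 1077 CPM. The master regulators Tfeb and Tfe3 were at -0.31 and -0.10 and did not pass. In autophagy 12 of 25 rose and 0 fell, against 21.1% and 18.6% of all tested genes. Examples were the receptor Optn, from 33.7 and 36.4 to 92.1 and 106 CPM, and the membrane marker Map1lc3b (LC3B), from 133 and 105 to 296 and 272 CPM.

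Extracellular matrix genes rose. Of 34 tested collagens 23 were higher (14 without irradiated 2, median 1.00), and Col8a1, the 1 that fell, lost its call without non-irradiated 1 or irradiated 1. Col3a1, a fibrillar collagen, went from 476 and 540.0 to 1034 and 1183 CPM. Of 31 matrix glycoproteins and proteoglycans 19 rose (median 1.08), and Lamc1, the 1 that fell, lost its call without non-irradiated 2, irradiated 1 or irradiated 2 (3 fell with the block). At most 2 reads in both non-irradiated KO libraries were held by 5 of the 34 collagens and 4 of the 31 glycoproteins and proteoglycans. These passed the filter through other libraries, so they could hardly be called lower. Fbln1 went from 0.729 and 0.402 to 4.18 and 5.19 CPM and Fn1 (fibronectin) from 41.6 and 45 to 243 and 267 CPM. Dcn (decorin) rose from 9.57 and 7.89 to 62.5 and 54.9 CPM, less than in WT, where it rose by 4.44 ± 0.16 (difference -1.71 ± 0.21, edgeR adjusted p = 0.00735). Bgn and Timp2, already abundant, rose to 2406 and 2889 and 2259 and 2581 CPM. Among channels and calcium genes, the group that Piezo2 belongs to, 4 of 22 rose (9 with the block) and 5 fell (3 without non-irradiated 1 or irradiated 1, 8 with the block), near the 21.1% and 18.6% of all tested genes. Trpv2, a calcium channel, went from 0.091 and 0.101 to 1.72 and 1.5 CPM, with no overlap of the groups. Piezo1, the closest relative of Piezo2, went from 236 and 276 to 160.3 and 204 CPM with edgeR adjusted p = 0.0448, and the call was lost without non-irradiated 1, non-irradiated 2 or irradiated 1.

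Ribosome biogenesis fell as a whole. Of 32 tested genes 30 were lower and 0 higher (median -0.91), the exceptions being Nop14 (0.09) and Polr1c (-0.46, which passed with the block, edgeR adjusted p = 3.32e-07, and without non-irradiated 2), and in WT 28 were lower (median -0.80). Dkc1 (dyskerin, which pseudouridylates ribosomal RNA) went from 108 and 110.4 to 36 and 33.5 CPM, a change of -1.69 ± 0.09 (edgeR adjusted p = 7.93e-06). Fbl (fibrillarin, its methylating counterpart) went from 146 and 133 to 48.6 and 48.6 CPM and Ncl (nucleolin) from 1266 and 1190.0 to 543 and 524 CPM. In each gene both irradiated libraries were far below the non-irradiated pair. Cytosolic ribosomal protein genes were closer to the whole (median -0.22), with 23 of 85 lower and 0 higher, 10 to 12 lower when any one KO library was left out, and 63 lower and 7 higher with the block. Of all tested genes 18.6% fell. In WT 6 of the 85 were lower and 2 higher (median -0.01). The KO response was below the WT response for 0 members without the block and 56 with it.

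Supply pathways for growth fell with it. Of 20 nucleotide synthesis genes 17 fell and 2 rose (1 without any one KO library). Ctps, which makes CTP, went from 206 and 189.8 to 64.2 and 63.5 CPM, while its relative Ctps2 rose from 55.3 and 55.1 to 83.2 and 77.9 CPM. In serine and folate metabolism 9 of 14 fell (median -0.90). Mthfd1l, a mitochondrial folate enzyme, went from 179 and 160.3 to 39.6 and 39.99 CPM, a change of -2.12 ± 0.08 (edgeR adjusted p = 1.76e-06), and its partner Mthfd2 from 97.7 and 99.3 to 23.4 and 27.4 CPM. Of 20 cytosolic tRNA synthetases 16 fell, led by Mars (158 and 146 to 67.9 and 70.8 CPM), and 2 rose (0 or 1 without any one KO library). Atf4, the amino acid stress factor that induces many of these, fell from 415 and 419.7 to 232 and 221 CPM, as did its target Asns, asparagine synthetase, from 230.3 and 202 to 96.2 and 87.1 CPM. Ddit3 (CHOP) went the other way, from 20.4 and 23.7 to 56.6 and 50.2 CPM, and this gene overlaps Mars on the opposite strand.

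Central carbon metabolism fell moderately. For comparison, 18.6% of all tested genes fell and 21.1% rose. Of 30 glycolysis and hypoxia genes 17 fell and 0 rose (1 rose with the block or without irradiated 1), with a median of -0.52. Slc16a3, the lactate exporter MCT4, went from 61.3 and 66.3 to 18.2 and 20.3 CPM and Slc2a1, the glucose transporter GLUT1, from 123 and 114 to 55.5 and 53.2 CPM, whereas Gapdh and Aldoa were at -0.42 and -0.34 and passed with the block (edgeR adjusted p = 4.93e-14 and 1.97e-09) and without a filter on low counts, but not otherwise. In the TCA cycle 15 of 22 fell, and Pcx (pyruvate carboxylase) rose from 14.2 and 14.8 to 32 and 38.1 CPM. Nuclear genes of complex I fell in 14 of 37 (22 with the block, 8 without non-irradiated 2, 9 without irradiated 2). Of 13 mitochondrially encoded genes 2 fell, a share under that of all tested genes, and 0 rose (4 rose with the block, 1 without non-irradiated 2). Of these, mt-Nd1 went from 2918 and 2984 to 1703 and 1659.9 CPM, one of the 10 largest losses. In fatty acid synthesis 9 of 16 fell, with Elovl6 from 165 and 152 to 55.9 and 59 CPM, and in cholesterol synthesis 11 of 26 (21 with the block, 7 without irradiated 2). Of 34 constitutive proteasome subunits 23 fell (13 without irradiated 2), in contrast to the interferon-induced subunits above.

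Transcripts induced by growth factor signalling fell, and the activity of ERK itself was not measured. Of 17 genes induced by ERK 13 were lower and 0 higher (median -0.73). Etv4, an ETS factor, went from 65.2 and 72.1 to 10.02 and 11.3 CPM, a change of -2.72 ± 0.12 (edgeR adjusted p = 4.19e-06), and Ccnd1 (cyclin D1) from 651 and 722 to 188 and 208 CPM. Epha2, a receptor tyrosine kinase, went from 258 and 279.7 to 66.5 and 71.3 CPM, and in all 3 the libraries of a group lay close together and the groups far apart. Myc went from 119 and 132 to 47 and 59.6 CPM (edgeR adjusted p = 0.000335), and 12 of 19 of its family and targets fell, with Srm (spermidine synthase) from 108 and 113 to 35 and 37.7 CPM. Its antagonist Mxd4 rose from 50.9 and 49.3 to 88.5 and 93.3 CPM. In the Hedgehog, Notch and Wnt list 5 of 21 fell (9 with the block), a share not far from the 18.6% of all tested genes, and 2 rose (5 with the block, 1 without non-irradiated 1, non-irradiated 2 or irradiated 2). The risers were Dkk3 (0.456 and 0.151 to 4.58 and 4.96 CPM) and the receptor Notch3 (0.547 and 0.754 to 1.59 and 4.62 CPM). The fallers were the Hedgehog effector Gli1, the largest fall among called genes at a mean of 5 CPM or more in the higher group (6.2 and 4.22 to 0.597 and 0.693 CPM), its target Ptch1 (48.9 and 50.03 to 22.7 and 22.9 CPM), the Notch genes Lfng (28.3 and 26.8 to 4.71 and 5.19 CPM) and Hes1 (11.6 and 12 to 3.18 and 3.98 CPM), and the Wnt antagonist Dkk2 (35.1 and 31.1 to 17.3 and 15.1 CPM). Ccn1, a target of the mechanically regulated factor YAP, went from 141 and 143 to 55.5 and 61.4 CPM.

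Counted in reads rather than folds, other genes led. Rnf213, a giant ubiquitin ligase with an ATPase domain that interferon induces, gained most and went from 239 and 291 to 3329 and 4146 CPM, a change of 3.78 ± 0.19. Replicate 2 was above replicate 1 in both groups, and the groups lay far apart. Gsn (gelsolin, which severs actin) went from 865 and 794 to 2484 and 2401 CPM. The largest losses included Hspa8, a constitutive chaperone, from 2922 and 2922 to 1793 and 1748 CPM, Eno1 (enolase) from 2946 and 2548 to 1737 and 1626 CPM and Anxa2 from 2936 and 3005 to 1709 and 1805 CPM. Ahnak went from 4589 and 5503 to 2097 and 2831 CPM and Flna (filamin A) from 2348 and 2797 to 1289 and 1669 CPM, and both lost their call without irradiated 1. By fold, the 15 largest falls included F2rl1, the protease-activated receptor PAR2, from 84.2 and 75.3 to 11.1 and 10.5 CPM, and the basal keratin Krt14, from 1100.1 and 1109 to 260.1 and 262 CPM.

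**Figure D4:**
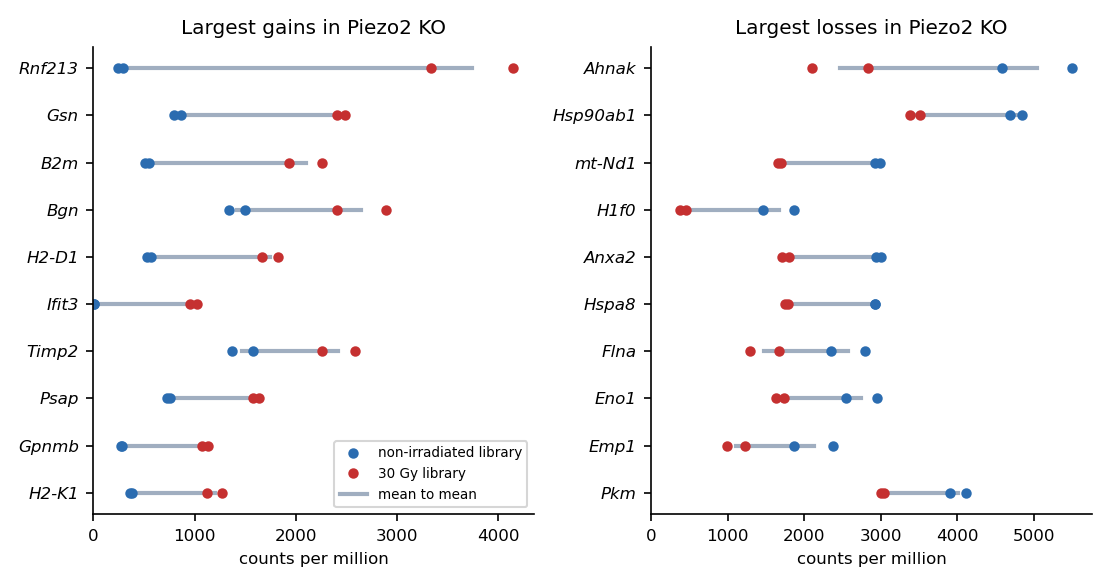
The 10 genes with the largest gains and the 10 with the largest losses in mean CPM among called genes, with each KO library as a dot (x axis, CPM from 0) and a line joining the group means. Rnf213 leads the gains, from 239 and 291 to 3329 and 4146 CPM, and in every gene shown the irradiated and non-irradiated dots are apart.

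Some genes went from silence to clear expression. Of 11863 genes with at most 2 reads in both non-irradiated KO libraries, 110 were at 1 CPM or more in both irradiated ones, and no gene went the other way. Of the 110, 92 were protein coding, 10 noncoding and 5 pseudogenes, 78 were silent in non-irradiated WT too, and 35 reached 1 CPM in both irradiated WT libraries. Gm12250, annotated as a processed pseudogene and lying near Igtp, was the highest, from 0.091 and 0.101 to 136 and 128 CPM. Ifi213 had no read before and 8.09 and 7.16 CPM after the dose, at least 78.1-fold higher. Spib, an ETS factor of B and plasmacytoid dendritic cells, had 2 and 1 reads before and 122 and 141 after. In irradiated WT it was higher still, at 55.6 and 55.9 CPM, but its responses (-1.47 ± 0.74) did not differ by the test (edgeR adjusted p = 0.66).

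Markers of other cell types were examined because single lineage genes such as Spib rose. Summed T and NK cell markers stayed between 0.251 and 0.635 CPM in the KO libraries. Of 14 listed, 10 were in the table, and none of these passed the filter. Summed macrophage markers went from 17.8 and 19.4 to 83.6 and 73.5 CPM, mostly Cd68 (6.93 and 7.69 to 62.7 and 53.7 CPM), a lysosomal protein. Of the 5 tested, 3 had at most 2 reads in both non-irradiated KO libraries and passed the filter through other libraries. All 5 tested of the 15 listed rose, but 3 did without non-irradiated 1, 2 without non-irradiated 2 or irradiated 1 and 1 without irradiated 2, and C1qa, C1qc, Tyrobp and Itgam were at 0 in every KO library. B cell markers went from 0.638 and 0.654 to 23.2 and 23 CPM, nearly all Pax5 (0.182 and 0.352 to 20.8 and 21.8 CPM). Both tested members, Pax5 and Cd79a (0.365 and 0.101 to 2.06 and 0.866 CPM), rose (1 without any one KO library), while Ms4a1 and Cd79b were at 0. Of the neutrophil and dendritic cell markers only Xcr1 was tested and rose, from 0 and 0 to 1.86 and 1.5 CPM. It passed the filter through other libraries, so it could hardly be called lower. Of 5 tested endothelial markers 3 rose (2 without non-irradiated 2, irradiated 1 or irradiated 2), and 1 of the 5 had at most 2 reads in both non-irradiated KO libraries. Summed fibroblast markers were high throughout, from 1553 and 1652 to 2633 and 2952 CPM (7 of 9 tested higher, 1 lower). The call of the 1 that fell was lost without non-irradiated 1, irradiated 1 or irradiated 2. Of the 9, 2 had at most 2 reads in both non-irradiated KO libraries, so they could hardly be called lower. The part of the fibroblast markers in the matrix results, and of the other markers in the immune gene results, was not tested.

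Most of the KO response had the same direction in WT. How many genes differed between the responses depended on whether the pairing of same-numbered libraries was fitted. Of the genes that rose in KO, 2208 also rose in WT (70.0% of the KO and 72.5% of the WT list), and 2048 fell in both (73.9% and 74.4%). In WT 20.4% of tested genes rose and 18.4% fell, and the 2 comparisons share no library. The interaction, which is the KO change minus the WT change, passed for 290 genes (1.94% of those tested), 205 above 0 (1.37%) and 85 below (0.57%). Of the 205, 189 rose in KO. With the block, which fits that pairing, these counts were 1216 and 1276 of 14923 tested genes, far more than without it. Without any one KO library they were 102 to 115 and 18 to 28, the lowest without irradiated 2 or, above 0, without non-irradiated 2. The genes above 0 held the ISRE core in 19.65% of windows (45 of 229) and those below in 2.3% (2 of 87).

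Many interferon-induced genes stood on the side where KO responded more. The difference passed for 13 of 33 interferon effectors, 5 of 18 GTPases, 10 of 22 MHC class I genes and 7 of 16 sensors, each share above the 1.37% of all tested genes, and none passed below 0 without the block. Without any one KO library these counts were 10 to 13, 2, 6 to 8 and 6, and with the block 18, 10, 19 and 10. The Schlafen genes Slfn8, from 2.1 and 2.26 to 111 and 107 CPM (difference 3.64 ± 0.34, edgeR adjusted p = 0.00232), and Slfn2, from 0.273 and 0.151 to 28.5 and 26 CPM (difference 2.98 ± 0.53, not past the test without any one KO library), were among the 10 largest. So was Batf2, an interferon-induced factor, from 0.182 and 0.704 to 22.9 and 26.2 CPM (difference 4.11 ± 0.58, not past the test without irradiated 2). Enpp5 led the list with another pattern. It had no read in the non-irradiated KO libraries and 3.25 and 2.37 CPM in the irradiated ones, against 8.84 and 8.41 and 24.5 and 20.9 CPM in WT, so it stayed below WT with and without the dose. Daxx, a chromatin factor that represses endogenous elements, rose by 2.99 ± 0.09 in KO and by 0.64 ± 0.08 in WT (edgeR adjusted p of the difference = 0.000398).

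On the other side Lbp, which binds bacterial lipopolysaccharide, rose from 2.46 and 2.06 to 33.6 and 29.3 CPM in KO, less than in WT (difference -2.45 ± 0.39, edgeR adjusted p = 0.0229), though this difference did not pass without any one KO library. Txnip, an arrestin induced when glucose flux is high, rose by 3.66 ± 0.12 in KO and 5.33 ± 0.13 in WT (difference -1.67 ± 0.17, edgeR adjusted p = 0.00336). Kazn, a cell junction protein, fell from 11.2 and 10.8 to 1.92 and 2.13 CPM in KO and was near unread in WT, at 0.178 and 0.328 CPM before and 0.443 and 0.465 CPM after the dose. Clstn3 was read in the KO line, at 13.9 and 12.4 CPM without irradiation against 0 and 0 in WT, and its KO change (0.42 ± 0.20) passed only with the block (edgeR adjusted p = 0.00696). The differences of Kazn (-3.25) and Clstn3 (-6.42) did not pass without any one KO library.

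The lines went opposite ways in 26 genes called in both, 12 higher in KO and lower in WT and 14 the reverse (9 to 12 and 4 to 7 without any one KO library, 8 and 5 by DESeq2, 93 and 87 with the block). Ltbp1, Mlkl and Bcl2 were among them in each of these settings. Ltbp1, which stores latent TGF-beta in the matrix, had 74.3 and 78.5 CPM in the non-irradiated and 142 and 155 CPM in the irradiated KO libraries, and 209 and 216 and 108 and 123 CPM in WT. It started lower in KO and ended higher, with a rise of 0.92 ± 0.09 in KO, a change of -0.94 ± 0.09 in WT and a difference of 1.86 ± 0.13 (edgeR adjusted p = 0.000968). Bcl2, the survival gene, fell in KO, from 16 and 15.4 to 9.62 and 9.12 CPM, and rose in WT, from 16.4 and 16.8 to 25 and 23.1 CPM. The lines began alike and ended more than 2-fold apart (difference -1.25 ± 0.15, edgeR adjusted p = 0.00684, and not past the test without irradiated 2).

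**Figure D5:**
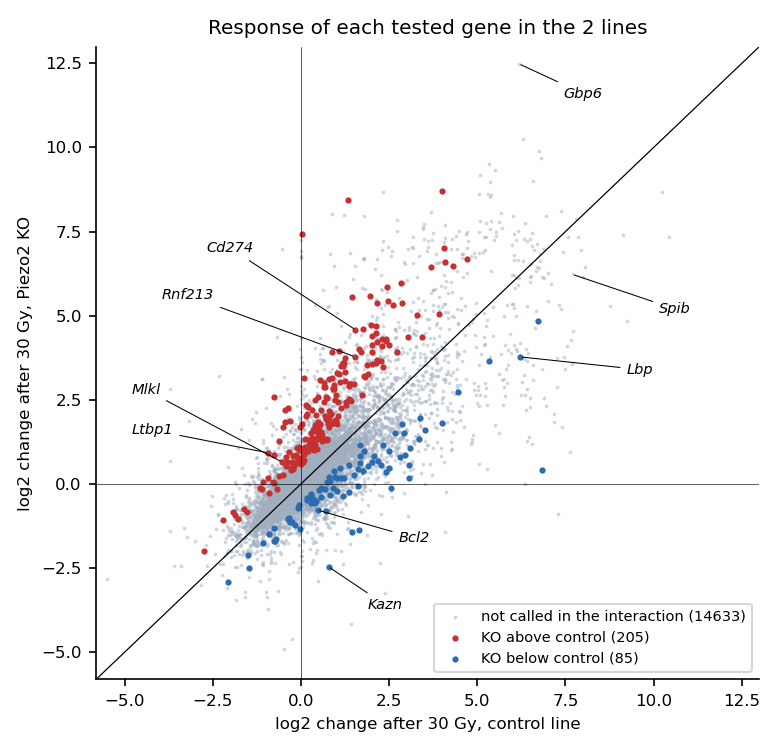
Each dot is a tested gene, with its log2 change after 30 Gy in WT (x axis) and in KO (y axis). The 205 red genes lie above the diagonal by the interaction test, the 85 blue genes below it, and the other 14633 are grey. Ltbp1 and Bcl2 lie in the corners where the lines moved opposite ways.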

How the data were processed

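Bulk RNA sequencing libraries of 8 MC38 samples were deposited as whole-number read counts for each Ensembl gene, which the authors had not normalised. Per the submitters' processing notes the build is mm10 and HISAT2, HISAT, HTSeq and DESeq2 were used. Their versions, the annotation, the strand setting and the handling of multi-mapped reads: not given in the sources used here. Of the tested genes named in the text, 39 of 168 overlap another tested gene, 31 of them one on the opposite strand, and their reads cannot be told apart without a strand setting. The labels do not say whether replicates are separate cultures, so p-values may reflect technical spread alone. Groups come from the sample titles. No column lay outside these samples (0 such columns).

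Counts were fitted in R 4.3.3 with edgeR 4.0.16 (limma 3.58.1): filterByExpr (minimum count 10, minimum total 15) kept 14923 of 29079 genes, TMM factors were 0.975 to 1.024, and all 8 libraries in 4 groups shared 1 fit with 4 residual degrees of freedom and a common dispersion of 0.0199. The two-sided quasi-likelihood F test was adjusted by Benjamini-Hochberg over tested genes and called under 0.05. The SE is the size of the log2 change over the square root of F. CPM uses total counts. A gene with at most 2 reads in both non-irradiated KO libraries passed the low-count filter through other libraries, and could hardly be called lower in KO. The fit was tested on simulated counts. Intervals and floors (3 reads for a count of 0, over a group for a fold) cover counting error only. Same-numbered libraries deviated from their group means together in all 6 pairs of groups (correlation 0.564 to 0.611, and 0.568 for the KO pair), which pairs them, and a fit with the replicate number as a block was run as an alternative. Other alternatives were DESeq2 1.42.0 (Wald test, and its size factors in edgeR), no filter, the 4 KO libraries alone with and without the block, and leaving out each KO library.

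Gene symbols and positions come from GENCODE M21, promoter windows and motifs from RefSeq (GRCm38.p6, 10514 of 14923 tested genes matched by symbol). The comparison, gene lists, motifs and the naming rule were chosen with earlier results of these data known. The rule named Piezo2, the 15 largest rises and falls at a mean of 5 CPM or more in the higher group with no overlap, the 10 largest gains and losses in CPM, the 10 largest interaction effects a side, the 10 highest genes silent before the dose, up to 5 called members per list and direction, and members that define a list. Fn1, Ifit2, Igtp, Irgm1, Irgm2, Mlkl and Socs1 fall outside it and were chosen after their values were seen. Not every gene the rule admits is described.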

Additional observations from a re-analysis of the deposited data

Results flagged for a closer look

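The response to 30 Gy differed between the KO and the WT line, by the interaction test itself, in 290 genes. Of these, 42 are named in the text, with KO minus WT differences in log2 as follows, and all 42 also passed with the replicate block. The difference held without each KO library in turn for 16 of them, and was lost without at least 1 KO library for 26, of which 14 lost it without each of the 4.

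Among the 16, KO responded more in Psmb9 (3.20), Slfn8 (3.64), Cd274 (3.04), Tap1 (2.88), Socs1 (2.61), Ifit2 (2.56), Daxx (2.35), Rnf213 (2.25), Ifih1 (2.08), Irgm1 (1.86), Ltbp1 (1.86), Ifi203 (1.74) and Mlkl (1.18). Enpp5 (7.12) rests on no read in the non-irradiated KO libraries, so its size depends on the small count added in the fit. KO responded less in Txnip (-1.67) and Dcn (-1.71).

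Among the 26, the positive differences were those of Tgtp1 (4.73), Batf2 (4.11), Olfr56 (3.40), Trpv2 (3.03), Slfn2 (2.98), Igtp (2.52), Irf5 (2.27), Isg15 (2.18), Ccl8 (2.12), Irgm2 (1.98), Casp4 (1.42), Dkk2 (1.16), Spp1 (0.95), Optn (0.87), Mthfd2 (0.76) and Lipa (0.58). The negative ones were those of Clstn3 (-6.42), Kazn (-3.25), Lbp (-2.45), Bcl2 (-1.25), Lfng (-1.02), Mxd4 (-0.84), F2rl1 (-0.84), Krt14 (-0.60), Elovl6 (-0.58) and Ccn1 (-0.55). Clstn3 had no read in non-irradiated WT. DESeq2 did not call the differences of Lfng and Trpv2.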

How the results depend on the processing

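The count of genes higher in irradiated KO libraries (3156) lay between 2616 and 4569 with DESeq2, its size factors, no filter, the KO libraries alone and the replicate block. The lower count (2771) moved to 4417 with the replicate block and to 4414 with the block in the 4 KO libraries alone. Leaving out 1 KO library gave 2072 to 2347 higher and 1832 to 2065 lower, both lowest without irradiated replicate 2. At least 2-fold, the counts stayed within 1.5 times of 1604 and 417 in each of these settings. The interaction was the least stable: its 205 and 85 genes became 1216 and 1276 with the replicate block, 359 and 219 without a filter, and 102 to 115 and 18 to 28 without 1 KO library. The cause of these moves was not tested, apart from the fewer libraries of the last.

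Of 168 named genes, the replicate block changed the call of 15, each to past the test, and DESeq2 that of 5. The replicate block changed no other call. Values not past the test changed sign in 4 genes when 1 KO library was left out: Ccng1 ran from -0.05 (without irradiated replicate 1) to 0.11, Mdm2 from -0.03 (without irradiated replicate 1) to 0.07, Mki67 from -0.29 to 0.06 (above 0 without irradiated replicate 1 or, at 0.01, non-irradiated replicate 2), and Tfeb from -0.71 to 0.26 (without non-irradiated replicate 2). Depth limits the genes near 0 reads, whose fitted folds depend on the count added in the fit.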

Other observations

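Measured in 1 edited line at 1 dose and 1 time, these values do not separate the edit from differences that arose while the 2 lines were grown apart, and the WT and KO levels without irradiation already differed for genes such as Enpp5, Clstn3 and Ltbp1. Each group has 2 libraries of bulk RNA. Biotypes differed in how often they were called: 23% of tested protein coding genes were higher and 21.2% lower, against 18.9% and 8.1% of lincRNA genes and 6.3% and 2.0% of pseudogenes. The irradiated KO libraries held a read of more genes (21891 and 22534) than the non-irradiated ones (18199 and 20137), whose depths were 15.1 and 17.3 M counts against 10971004 and 19887180 counts.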
